A study of Mus musculus with 5 samples.

Results

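The 7 genes that encode subunits of the NMDA receptor (Grin1, Grin2a, Grin2b, Grin2c, Grin2d, Grin3a and Grin3b) were followed through 5 RNA-Seq libraries of mouse dentate gyrus (DG). They were taken by gene symbol as the complete set of subunit genes, and all 7 were found among the 23420 symbols of the files. The mice were wild-type CD1, an outbred strain, with an age of 4 months in the sample labels. Mice of the locked disk group (LD) lived alone with a running disk that could not turn, and mice of the complex environment group (CE) had a locked disk, company and tunnels. Runners (RUN) lived alone with a working disk, and RNA of the shorter-distance and the longer-distance runners was also pooled separately as low runners (L-RUN) and high runners (H-RUN). Each group was 1 library of RNA pooled from several mice, so no group had a replicate, no difference between groups could be tested, and differences between mice were averaged within each pool. RUN held RNA of the same animals as L-RUN and H-RUN together and was not an independent group of mice.

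The NMDA receptor is a glutamate-gated cation channel built from obligatory GluN1 subunits, which bind glycine or D-serine, together with GluN2 subunits, which bind glutamate, or GluN3 subunits, which bind glycine. It lets calcium into the cell when glutamate arrives at a depolarized membrane, and it is needed for long-term potentiation at the perforant path synapses onto dentate granule cells. GluN2A and GluN2B set the speed of the channel and its links to the postsynaptic density in forebrain neurons. GluN3A lowers the calcium permeability of the receptor.

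Grin2a and Grin2b, the genes of the main forebrain GluN2 subunits, were lower than in LD in all 4 other libraries, and lowest in L-RUN. Grin3a was lower in the 3 running libraries and close to its LD value in CE. Grin1, Grin2c, Grin2d and Grin3b stayed within 0.3 of LD in every library. The values are regularized log values, which are normalized read counts on the log2 scale with each gene's values drawn towards its mean, so that differences are shrunk, and most so at small counts. A difference of 0.3 or more in size was used as the cut-off, as in the methods of the study. It was applied to the 13550 genes with a mean value of at least 5 over the 5 libraries (expressed genes), and all 7 subunit genes were among these. Since tissue was analysed in bulk, fewer cells that carry a transcript and less transcript per cell cannot be told apart.

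The 1 measure of error in this design comes from RUN, since both pools of runners, averaged on the linear scale, should give its value for each gene. The spread of what was left over, among expressed genes of like level, gave the technical SD of a difference, which was 0.022 for Grin1, 0.040 for Grin2a and Grin3a, 0.047 for Grin2b and Grin2d, 0.036 for Grin2c and 0.037 for Grin3b. It covers library preparation and sequencing, and not dissection, RNA extraction or differences between mice. For the subunit genes themselves, RUN minus the averaged pools was -0.01 for Grin1, -0.02 for Grin2a, 0.02 for Grin2b and Grin3a, 0.01 for Grin2c, 0.03 for Grin2d and -0.06 for Grin3b. RUN thus lay within 0.03 of that average for 6 of the 7 genes. The sequencing depth is unknown, because the files hold no counts.

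**Figure D1:**
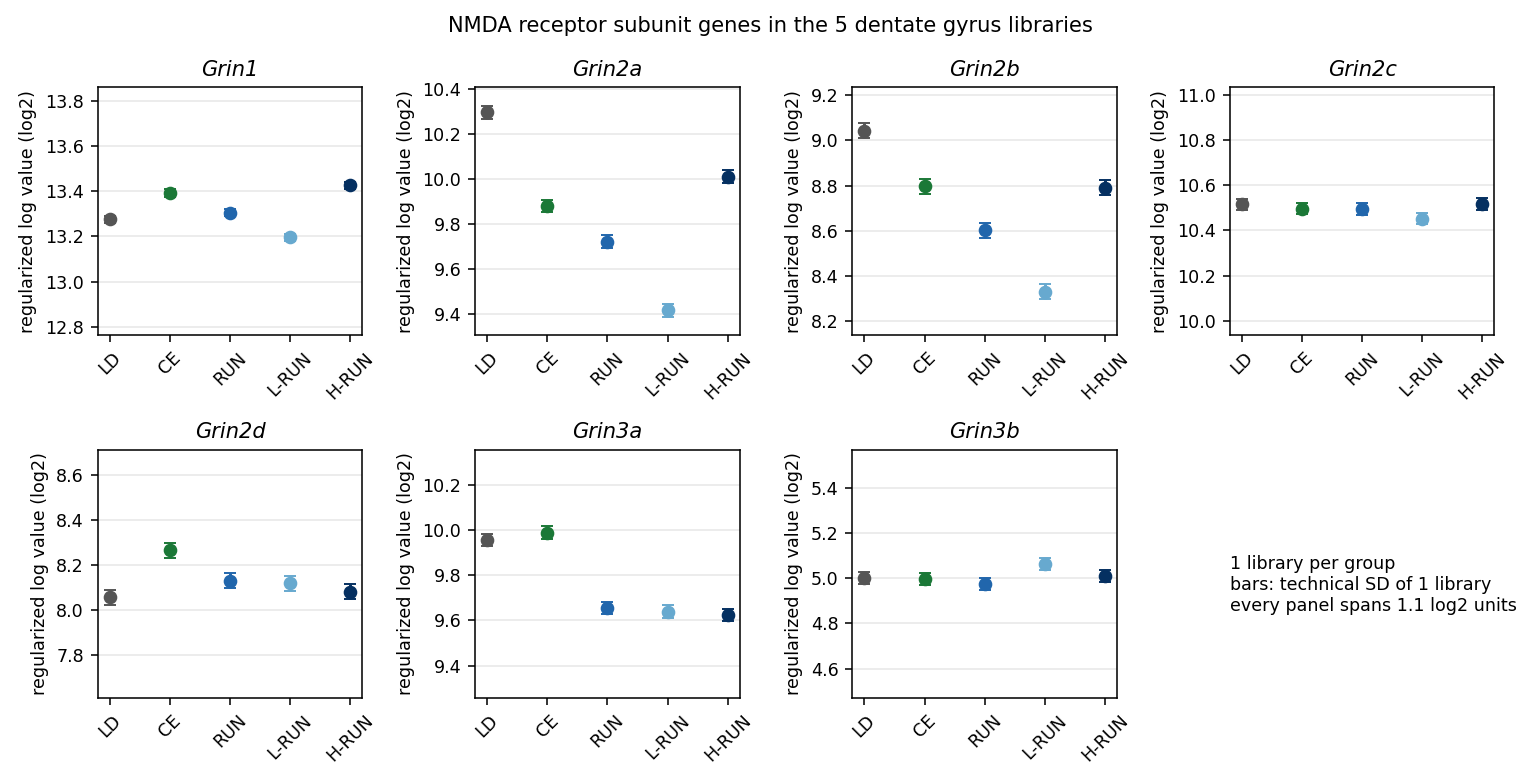
Regularized log value (log2, vertical axis) of each NMDA receptor subunit gene in the 5 libraries (horizontal axis), 1 point per library, with bars for the technical SD of 1 library. Grin2a and Grin2b are highest in LD and lowest in L-RUN, Grin3a is near 9.6 in the 3 running libraries against 9.96 in LD and 9.99 in CE, and the other 4 genes span 0.231 or less.

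Levels can be compared between the genes only per length of transcript. Divided by the length of the longest annotated transcript, the mean level over the 5 libraries was 11.22 (log2 per kb) for Grin1, 8.20 for Grin2c, 6.87 for Grin3a, 5.99 for Grin2a, 5.69 for Grin2d, 4.12 for Grin2b and 3.30 for Grin3b. The obligatory subunit was thus well above every partner. Grin2a (5.55 to 6.43 over the libraries) and Grin2d (5.62 to 5.82) overlapped in range, and no other neighbours in this order did. With the union of all annotated exons as the length, chosen after the data were seen, the order was the same and Grin3a (6.01 to 6.37) also overlapped Grin2a (5.25 to 6.13). The level of Grin2b rests on a transcript of 24060 bases, the longest of the 7, and would be higher if shorter forms were counted.

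Grin1 encodes GluN1, the subunit that every NMDA receptor holds, and lies on chromosome 2 (25291181 to 25319187, GRCm38, minus strand). Its value was 13.28 in LD and 13.39 in CE, and 13.31 (RUN), 13.20 (L-RUN) and 13.43 (H-RUN) in the runners. L-RUN was the lowest and H-RUN the highest, with LD between them. All differences from LD were below the cut-off, at 0.15 for H-RUN, 0.12 for CE, 0.03 for RUN and -0.08 for L-RUN. That of H-RUN was 6.8 times the technical SD and the 448th highest of 13550 genes. The annotated antisense gene Grin1os shares 1307 exon bases with Grin1 on the other strand, and whether counting used strand is not given in the sources used here.

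Grin2a encodes GluN2A, the GluN2 subunit of fast-closing receptors in mature forebrain synapses, and spans 427663 bases of chromosome 16 (9567898 to 9995560, minus strand). Its value was 10.30 in LD, 10.01 in H-RUN, 9.88 in CE, 9.72 in RUN and 9.42 in L-RUN. LD was above all of the others, and the L-RUN and H-RUN pools of runners lay 0.59 apart. In L-RUN the difference from LD was -0.88 (technical SD 0.040, no replicates), a level of 54.3% of LD on the regularized log scale and the 3rd lowest difference of all expressed genes. It was -0.57 in RUN (67.1% of LD, 2nd lowest), -0.42 in CE (74.9%, 7th lowest) and -0.29 in H-RUN (81.9%, 73rd lowest). H-RUN fell just short of the cut-off, and the other 3 libraries passed it.

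Grin2b encodes GluN2B, which predominates early in development and remains at adult forebrain synapses. It lies on chromosome 6 (135713233 to 136173511, minus strand). Its value was 9.04 in LD and 8.80 in CE, and 8.60 (RUN), 8.33 (L-RUN) and 8.79 (H-RUN) in the runners. As for Grin2a, LD was the highest and L-RUN the lowest, and CE and H-RUN were nearly equal. The difference from LD was -0.72 in L-RUN (60.9% of LD, 13th lowest of 13550) and -0.44 in RUN (73.7%, 24th lowest). It was -0.25 in both CE and H-RUN (84.3% and 83.9%, 103rd and 112th lowest), larger in size than the technical SD of 0.047 but below the cut-off.

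Grin2c and Grin2d encode GluN2C and GluN2D, which form receptors with weak magnesium block and are known from cerebellar granule cells and glia and from interneurons, respectively. Grin2c (chromosome 11, 115249169 to 115267243) had a value of 10.52 in LD and 10.50 in CE, and 10.50 (RUN), 10.45 (L-RUN) and 10.52 (H-RUN) in the runners. Its differences from LD ran from -0.06 to 0.002, and its range over the libraries of 0.066 was the smallest of the subunit genes. Grin2d (chromosome 7, 45831883 to 45878378) had a value of 8.06 in LD and 8.26 in CE, and 8.13 (RUN), 8.12 (L-RUN) and 8.08 (H-RUN) in the runners. CE was the highest, 0.21 above LD (4.4 times the technical SD, 234th highest), and the running libraries were 0.03 to 0.07 above LD.

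Grin3a encodes GluN3A, the main GluN3 subunit of the forebrain, and lies on chromosome 4 (49661611 to 49845744). Its value was 9.96 in LD and 9.99 in CE, and 9.66 (RUN), 9.64 (L-RUN) and 9.62 (H-RUN) in the runners. The 3 running libraries lay within 0.03 of each other and apart from the 2 libraries of mice with a locked disk. The difference from LD was -0.33 in H-RUN (79.4% of LD), -0.32 in L-RUN (80.2%) and -0.30 in RUN (81.2%), against 0.03 in CE. The 3 running libraries passed the cut-off by less than the technical SD of 0.040. Grin3b (chromosome 10, 79970715 to 79977190), whose product is best known from motor neurons, was near the floor of expression at 5.002 in LD and 4.996 in CE, and 4.976 (RUN), 5.064 (L-RUN) and 5.012 (H-RUN) in the runners. It shares 1059 exon bases with Tmem259 on the other strand.

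Counted over the family, 1 of 7 subunit genes (Grin2a) passed the cut-off downward in CE, where 0.266% of expressed genes were that far below LD and 0.332% that far above it. In RUN, 3 of 7 were lower (Grin2a, Grin2b and Grin3a), against 0.952% of expressed genes lower and 0.362% higher. The same 3 were lower in L-RUN, against 2.33% lower and 0.797% higher. In H-RUN only Grin3a was lower, against 0.472% lower and 0.354% higher, and no subunit gene was called higher than LD in any library. The median of the 7 differences was 0.002 for H-RUN, -0.01 for CE, -0.03 for RUN and -0.08 for L-RUN, where the median over all expressed genes was within 0.004 of 0. The 4 comparisons share the LD library, and the 3 of runners share mice.

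**Figure D2:**
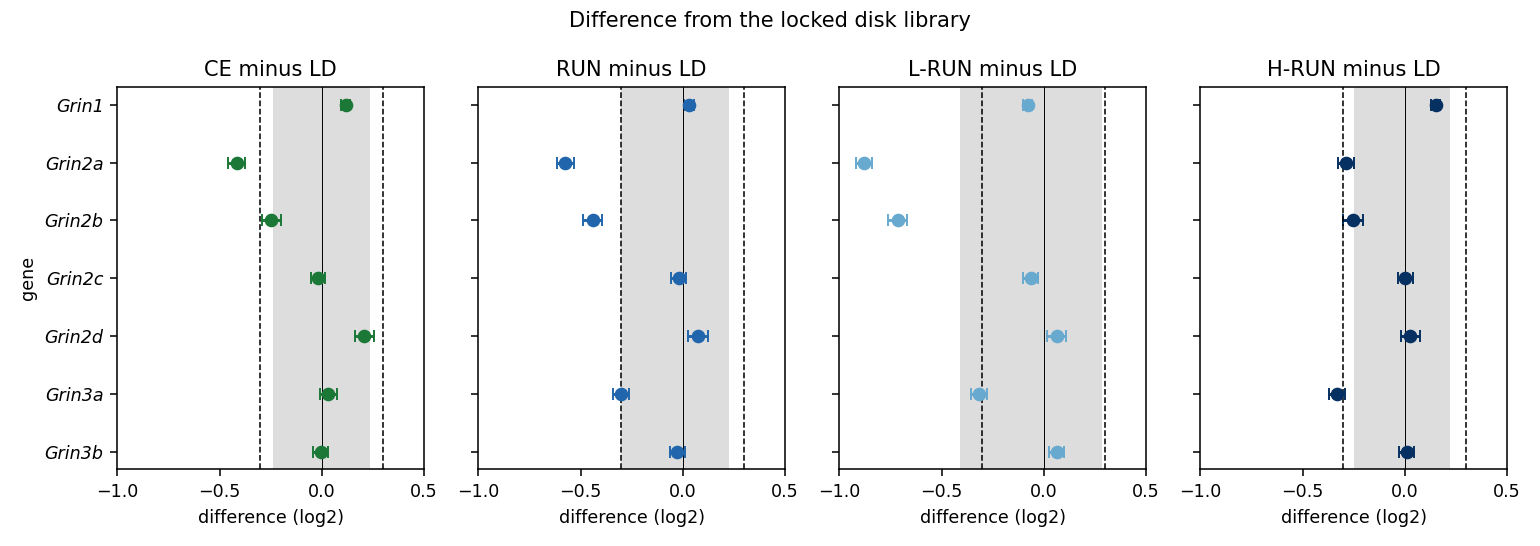
Difference of each subunit gene from LD (log2, horizontal axis) in the CE, RUN, L-RUN and H-RUN libraries, with bars for the technical SD, dashed lines at -0.3 and 0.3, and a gray band from the 1st to the 99th percentile of all 13550 expressed genes. In L-RUN, Grin2a (-0.88) and Grin2b (-0.72) lie outside a band that begins at -0.41, while Grin3a (-0.32) lies inside it.

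For running distance, H-RUN was set directly against L-RUN. The pools were formed after the running, and the paper states that cause and consequence cannot be told apart between them. Grin2a was 0.59 higher in H-RUN (1.51-fold, 4th highest of 13550) and Grin2b was 0.46 higher (1.38-fold, 27th highest), so 2 of 7 subunit genes passed the cut-off upward, against 0.974% of expressed genes upward and 0.561% downward. Grin1 was 0.23 higher in H-RUN, 10.4 times its technical SD and below the cut-off. Grin3a differed between the pools by -0.01, less than its technical SD. The complex environment was also set against RUN, and 1 of 7 genes passed the cut-off, with Grin3a 0.33 higher in CE (1.26-fold, 49th highest), against 0.539% of expressed genes higher and 0.295% lower. In that comparison Grin2b was 0.20 higher in CE and Grin2a 0.16 higher.

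Since each receptor needs GluN1, the partner genes were also taken relative to Grin1 within each library. This cancels a shift common to all values of a library, but not one that shrinkage made unequal between genes. Grin2a stood at -2.98 relative to Grin1 in LD, -3.42 in H-RUN, -3.51 in CE, -3.58 in RUN and -3.78 in L-RUN. Relative to LD, Grin2a had moved against Grin1 by -0.80 in L-RUN, -0.60 in RUN, -0.53 in CE and -0.44 in H-RUN (technical SD 0.046). On this scale H-RUN lay beyond 0.3 for Grin2a, with Grin1 0.15 higher and Grin2a 0.29 lower than in LD. Grin2b moved against Grin1 by -0.64 in L-RUN, -0.47 in RUN, -0.40 in H-RUN and -0.36 in CE (technical SD 0.052). The shift was thus present in all 4 libraries for Grin2a and Grin2b. The 4 libraries were set against the same LD library, and transcript length was not taken into account on this scale. Grin3a moved by -0.48 in H-RUN, -0.33 in RUN, -0.24 in L-RUN and -0.08 in CE. Grin2c and Grin2d moved by between -0.15 and 0.14.

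The balance of Grin2a to Grin2b, which rises as forebrain synapses mature, moved less than either gene. Grin2a exceeded Grin2b by 1.25 in LD, 1.22 in H-RUN, 1.12 in RUN, 1.09 in L-RUN and 1.08 in CE, without adjustment for length. The change from LD was -0.17 in CE, -0.16 in L-RUN, -0.13 in RUN and -0.03 in H-RUN, with a technical SD of 0.062. Per length of the longest transcript, Grin2a made up 18.8% of the summed GluN2 transcripts in LD, 16.1% in H-RUN, 14.8% in CE, 13.7% in RUN and 11.8% in L-RUN. The share of Grin2b was 4.81% in LD and 3.36% in L-RUN, and that of Grin2c 65.6% and 72.0%. These shares are a description, since the lengths used in counting are not in the files analysed here. They rest on longest transcripts of 14634 bases (Grin2a), 24060 (Grin2b) and 4895 (Grin2c). Shorter forms of Grin2a or Grin2b would raise their shares, and how evenly reads covered long transcripts is unknown. The shares are thus no measure of which GluN2 subunit predominates.

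**Figure D3:**
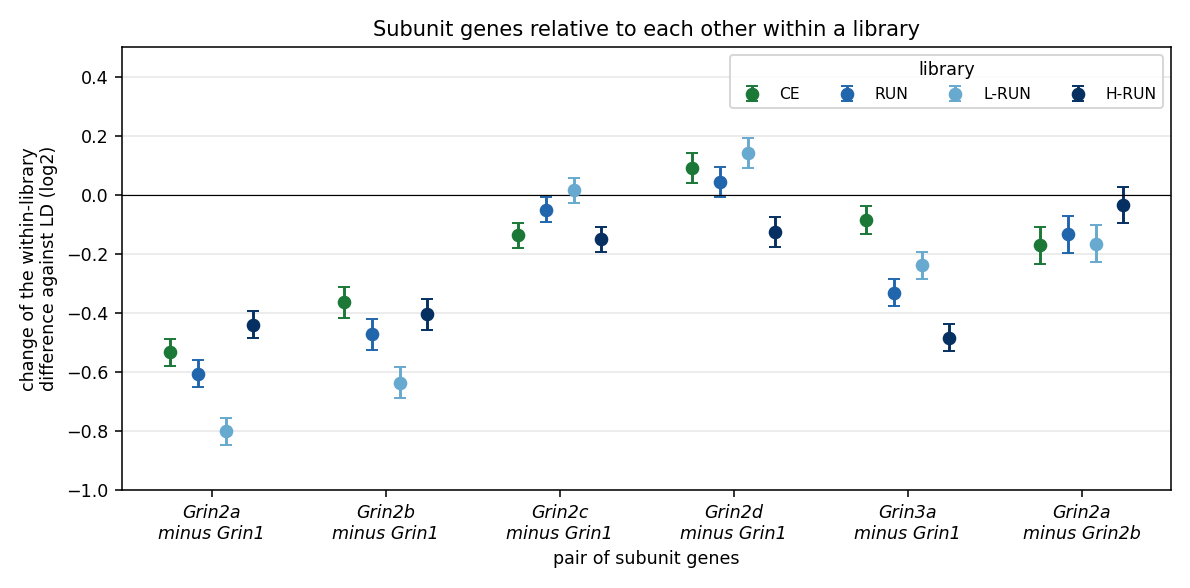
Change against LD (log2, vertical axis) of the within-library difference between 2 subunit genes (horizontal axis), for CE, RUN, L-RUN and H-RUN, with bars for the technical SD of the change. Grin2a and Grin2b lie between -0.36 and -0.80 relative to Grin1 in all 4 libraries, and Grin3a reaches -0.48 in H-RUN against -0.08 in CE.

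Transcript length moved with these differences. Across the 12765 expressed genes with an annotated length (94.2%), the Spearman correlation of length with the difference from LD was -0.51 for L-RUN, -0.49 for RUN, -0.37 for H-RUN and -0.33 for CE, given as a description across genes, which are not independent. The longest transcript of Grin2a holds 14634 bases, longer than 99.5% of these genes, that of Grin2b 24060 (99.9%) and that of Grin3a 7491 (92.0%), while Grin1 has 4276 (64.4%). A smooth curve of the L-RUN difference on length stood at -0.16 at the length of Grin2a, -0.19 at that of Grin2b and -0.10 at that of Grin3a. With this curve subtracted in each comparison, Grin2a remained at -0.72 in L-RUN, -0.45 in RUN, -0.33 in CE and -0.20 in H-RUN. Grin2b remained at -0.52 in L-RUN but moved to -0.29 in RUN, below the cut-off. In CE it moved from -0.25 to -0.14, and in H-RUN from -0.25 to -0.15. Grin3a moved to -0.22 in L-RUN, -0.23 in RUN and -0.28 in H-RUN, below the cut-off in all 3. The part of length in these differences was otherwise not tested.

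**Figure D4:**
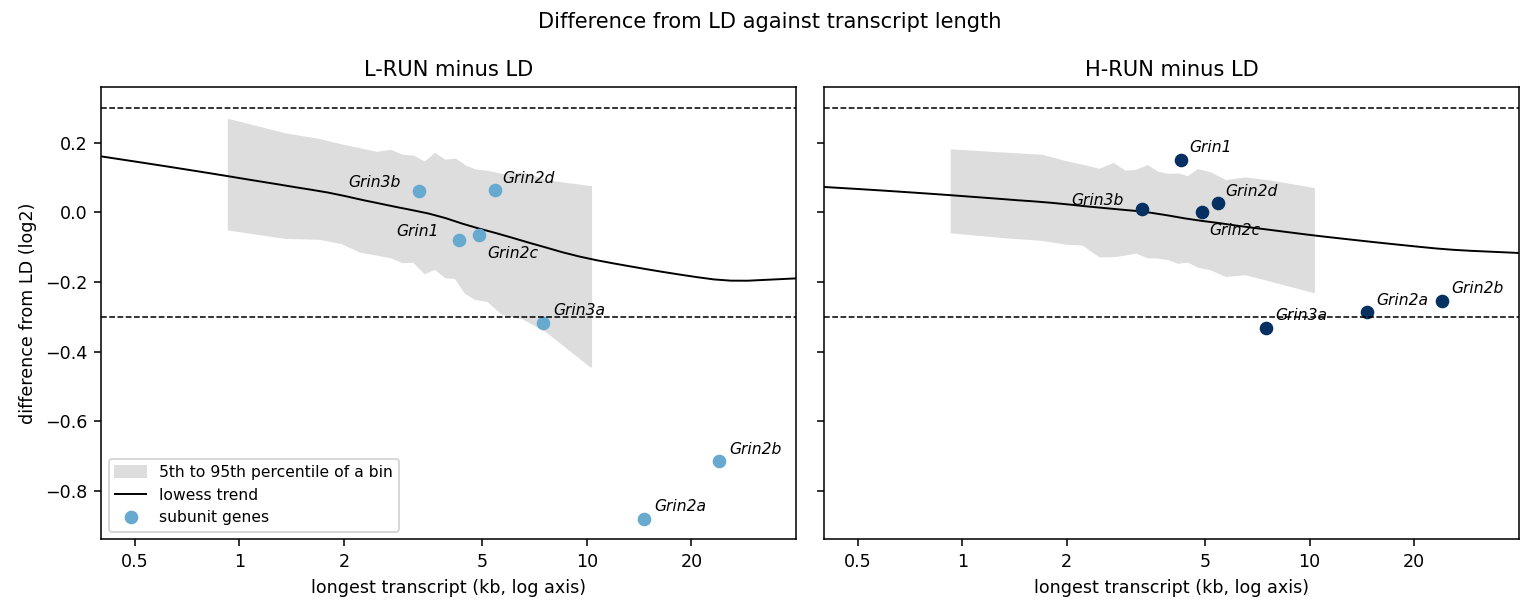
Difference from LD (log2, vertical axis) of the subunit genes (points) against the length of the longest transcript (kb, log axis), for L-RUN and H-RUN, with the smooth trend over 12765 expressed genes (line), the 5th to 95th percentile in bins of equal gene number (gray) and the cut-offs (dashed). The gray area joins the median lengths of the bins, so Grin2a and Grin2b lie beyond its end, and in L-RUN they lie 0.72 and 0.52 below the trend.

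The genes whose values followed those of a called subunit most closely were found by the Euclidean distance between values centred on their mean over the 5 libraries. For Grin2a these were Dgkh, a diacylglycerol kinase (distance 0.076), Lnpep, an aminopeptidase (0.116), and Cbl, a ubiquitin ligase (0.124). Dgkh differed from LD by -0.89 in L-RUN, -0.50 in RUN, -0.43 in CE and -0.24 in H-RUN. For Grin2b they were the BMP receptor gene Bmpr2 (0.040), the sorting receptor gene Sorl1 (0.041) and D10Bwg1379e (0.050). Grin2a was itself the 34th nearest of the expressed genes to Grin2b, and Grin2b the 8th nearest to Grin2a. The longest transcripts of Dgkh, Lnpep, Cbl, Bmpr2 and Sorl1 hold between 10715 and 15257 bases. For Grin3a the nearest were the transcription factor gene Etv1 (0.051), the receptor phosphatase gene Ptpru (0.060) and Rap1gap2 (0.090), which encodes a GTPase-activating protein for Rap. Etv1 was at 10.65 in LD and 10.72 in CE, and 10.34 (RUN), 10.38 (L-RUN) and 10.33 (H-RUN) in the runners. It shares the grouping of libraries with Grin3a because it was chosen by distance over these same libraries.

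The genes that work with the receptor were taken from a list of 53 symbols in 6 classes, of which 50 were expressed. Of these 50, 5 passed the cut-off in at least 1 comparison with LD. L-RUN had 3 lower and 1 higher, RUN 2 lower and 1 higher, H-RUN 1 lower and 1 higher, and CE 1 lower and 0 higher. The median of the 50 differences was 0.03 for H-RUN, -0.02 for CE, -0.03 for RUN and -0.08 for L-RUN. As shares, 6% of the list was lower in L-RUN against 2.33% of expressed genes, and 4% in RUN against 0.952%. In H-RUN 2% was lower against 0.472%, and in CE 2% against 0.266%. In each running library 2% was higher, against 0.797% (L-RUN), 0.362% (RUN) and 0.354% (H-RUN). The list was chosen with earlier results of these data known, so its shares are a description and cannot show an excess.

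Nos1, neuronal nitric oxide synthase, which is tethered to the receptor by PSD-95 and driven by its calcium, had the largest differences of this list. It was at 9.32 in LD and 9.19 in CE, and 8.74 (RUN), 8.58 (L-RUN) and 8.87 (H-RUN) in the runners. All 3 running libraries were below both libraries of mice with a locked disk. The difference from LD was -0.58 in RUN, the lowest of 13550 genes, -0.74 in L-RUN (7th lowest), -0.45 in H-RUN (7th lowest) and -0.13 in CE (technical SD 0.047). Its longest transcript has 10123 bases, and with the length trend subtracted the 3 running differences were -0.48 (RUN), -0.60 (L-RUN) and -0.39 (H-RUN). Directly against RUN, Nos1 was 0.45 higher in CE.

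Kif17, the kinesin motor that carries GluN2B vesicles along dendrites, was the gene of the list that was higher. Its value was 9.75 in LD and 9.86 in CE, and 10.09 (RUN), 10.06 (L-RUN) and 10.11 (H-RUN) in the runners. The running libraries were close to each other and 0.34, 0.31 and 0.36 above LD (technical SD 0.040), against 0.11 for CE. Its transcript has 3453 bases, and with the length trend subtracted they were 0.34, 0.31 and 0.36. The motor gene was thus above LD and Grin2b below it in the running libraries, though Grin2b in H-RUN (-0.25) did not pass the cut-off. With the length trend subtracted, Grin2b was at -0.52 in L-RUN, and at -0.29 in RUN and -0.15 in H-RUN, both below the cut-off. The other genes of transport and delivery did not pass the cut-off.

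Among the kinases and phosphatases, 2 of 15 passed the cut-off against LD, both downward. Both passed it in L-RUN, against 2.33% of expressed genes lower, and 1 passed it in RUN, against 0.952%. Prkcb, a calcium-dependent protein kinase C, was at 13.45 in LD and 13.22 in CE, and 13.15 (RUN), 12.89 (L-RUN) and 13.31 (H-RUN) in the runners, a difference from LD of -0.56 in L-RUN and -0.30 in RUN (technical SD 0.022). Camk2a, the calcium/calmodulin kinase that docks on GluN2B, was at 16.81 in LD and 16.78 in CE, and 16.68 (RUN), 16.50 (L-RUN) and 16.81 (H-RUN) in the runners, so that L-RUN alone passed, at -0.31. With the length trend subtracted, Camk2a moved to -0.26 in L-RUN and Prkcb stayed at -0.56. Between the pools of runners, Prkcb (0.41), Prkca (0.32) and Camk2a (0.31) were higher in H-RUN than in L-RUN by the cut-off. Over the whole list, chosen with earlier results known, 5 of 50 were higher in H-RUN and 0 were lower. As a description only, that is 10%, against 0.974% of expressed genes. Among the genes higher in H-RUN was Rasgrp1 (0.47), a calcium- and diacylglycerol-activated exchange factor for Ras.

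Rasgrp1 was at 13.40 in LD and 13.03 in CE, and 13.42 (RUN), 13.16 (L-RUN) and 13.63 (H-RUN) in the runners. CE was the lowest and H-RUN the highest, and CE alone passed the cut-off against LD, at -0.37 (technical SD 0.022). Among the 4 scaffolds that hold GluN2 tails, none passed the cut-off, and the largest differences were those of Dlg2 (-0.24) and Dlg1 (-0.10) in L-RUN. Dlg4, the gene of PSD-95, was within 0.07 of LD in every library. None of the 8 expressed genes of co-agonist supply passed it, and the largest differences were those of the glycine transporter Slc6a9 (0.25) and the serine synthesis gene Psat1 (-0.18), both in CE. None of the 5 auxiliary and adhesion partners passed it, with Nlgn1 at -0.22 and Neto1 at -0.21 in L-RUN.

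**Figure D5:**
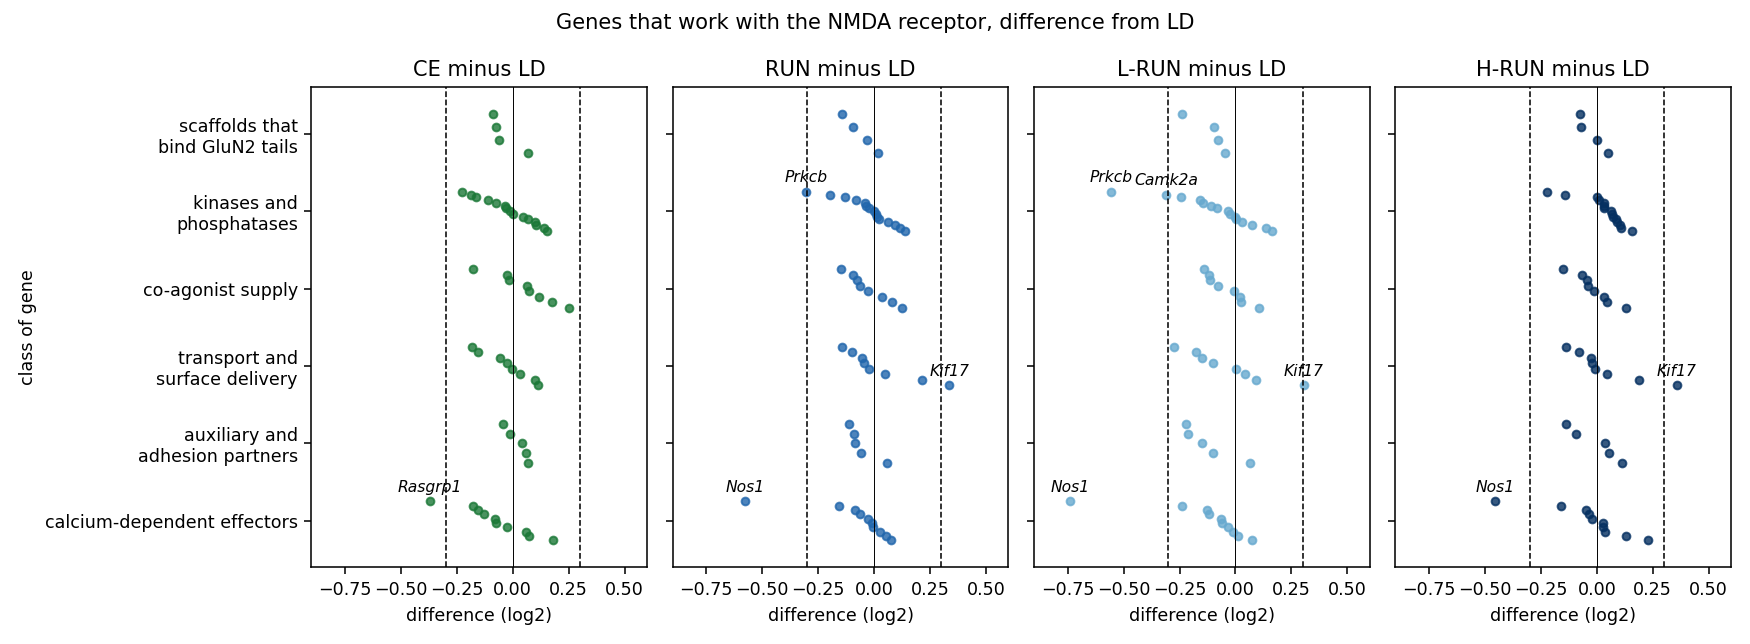
Difference from LD (log2, horizontal axis) of the 50 expressed genes that work with the NMDA receptor, by class (vertical axis), in CE, RUN, L-RUN and H-RUN, with dashed lines at -0.3 and 0.3. Nos1 lies to the left and Kif17 to the right of the lines in all 3 running libraries, and 46 (L-RUN) to 49 (CE) of the 50 genes lie between the lines.

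The makeup of the tissue was described with lists of markers. These lists were chosen with earlier results of these data known, so their shares are a description and cannot show an excess. All 6 markers of granule cells were expressed, the lowest of their values being 11.36 for Lct in CE. Their summed level (log2) was 15.09 in LD and 14.93 in CE, and 15.02 (RUN), 15.01 (L-RUN) and 15.04 (H-RUN) in the runners. The median difference from LD was -0.17 in CE, -0.12 in L-RUN, -0.10 in RUN and -0.09 in H-RUN. In CE none passed the cut-off, with Stxbp6 at -0.29, Lct at -0.25 and C1ql2 at 0.17. Of the granule cell markers, Prox1 was lower than LD by the cut-off in L-RUN (-0.41), with Dsp at -0.28 there, and C1ql2 was higher in all 3 running libraries (0.37 to 0.40). Markers of CA1 and CA3 pyramidal cells were present as well, with a summed level of 13.17 in LD and 13.14 in CE, and 13.05 (RUN), 12.91 (L-RUN) and 13.16 (H-RUN) in the runners. In L-RUN 4 of the 7 were lower than LD by the cut-off, against 2.33% of expressed genes. The summed level of 8 leptomeningeal markers was 11.51 in LD and 11.70 in CE, and 11.72 (RUN), 12.10 (L-RUN) and 11.28 (H-RUN) in the runners. Higher than LD by the cut-off were 5 of 8 in L-RUN (0.797% of expressed genes), 4 in RUN (0.362%) and 3 in CE (0.332%). In H-RUN 2 of 8 were lower (0.472%). Against LD, both lists had the most markers past the cut-off in L-RUN, the library with the lowest Grin2a and Grin2b. L-RUN also had the most calls against LD over all expressed genes. Directly against L-RUN, 7 of 8 leptomeningeal markers were lower in H-RUN, against 0.561% of expressed genes. In the same comparison 3 of 7 pyramidal markers were higher, against 0.974%. The CA1 marker Fibcd1 was at 10.35 in LD and 10.66 in CE, and 9.89 (RUN), 9.90 (L-RUN) and 9.83 (H-RUN) in the runners, low in the same 3 libraries as Grin3a and Nos1. It was singled out after its values were seen. The median difference of the 7 pyramidal markers from LD was -0.33 in L-RUN, -0.14 in RUN, -0.06 in CE and 0.07 in H-RUN. In H-RUN, Bok was at 0.41, Wfs1 at 0.18, Pou3f1 at 0.10 and Iyd at 0.07 against LD. Mpped1 was at -0.12 there, Cpne4 at -0.07 and Fibcd1 at -0.52. The summed level of 8 interneuron markers lay between 14.24 and 14.33, and 0 of 8 were lower than LD by the cut-off in any library. Sst was higher in CE (0.34) and L-RUN (0.30), and Npy in L-RUN (0.32). Of expressed genes, 0.332% were that far above LD in CE and 0.797% in L-RUN. In the other 6 lists (mossy cells, astrocytes, oligodendrocytes, microglia, endothelial cells and choroid plexus), at most 1 marker passed the cut-off in any comparison with LD. No marker was at 0. The part of other cell types in the subunit differences was not tested.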

How the data were processed

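RNA of the DG was pooled per group and sequenced as 5 TruSeq libraries of polyA RNA (LD, CE, RUN, L-RUN and H-RUN, grouped by their titles). The authors called bases with CASAVA 1.8.2, trimmed adapters, mapped reads to mm10 with TopHat2 2.0.10, counted with HTSeq over RefSeq genes, and deposited regularized log values from DESeq2 1.10.1, on the log2 scale, normalized over all 5 libraries together. Shrinkage depends on counts not analysed here, so depth and counting error are unknown and no model of counts was fitted. Of 23420 symbols, 4588 were at 0 in every library.

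Differences of values were taken between libraries for 6 comparisons, 4 of them with LD, and a gene was called at 0.3 or more in size. With 1 library per group, no test was run. The technical SD came from RUN minus the linear mean of both pools of runners, on the log2 scale (1.4826 times the median absolute deviation, per decile of the mean value), with the residual variance taken as 1.5 times that of a library and that of a difference as 2 times. Positions and lengths were taken from GENCODE M21 (GRCm38, the build of mm10) by symbol. Named are all subunit genes, the genes of the list that passed 0.3 against LD and otherwise up to 2 per class, 3 nearest genes for each called subunit gene, and markers. Genes higher in H-RUN than L-RUN, Dlg4 and Fibcd1 were named after their values were seen, and 1 gene of the list is not reported here by name. Members and lists were chosen with earlier results of these data known. Alternatives were a cut-off of 0.4, centring, quantile normalization, other minimum means, a baseline averaged from LD and CE, and removal of a lowess trend (fraction 0.3) with transcript length. Code, tested on simulated data, ran in python 3.11.15 with pandas 2.3.3, numpy 2.4.6, matplotlib 3.10.9, statsmodels 0.14.6 and scipy 1.17.1.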

Additional observations from a re-analysis of the deposited data

How the results depend on the processing

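No difference past the cut-off changed sign. Among smaller ones, Grin2d turned to -0.08 (H-RUN), -0.04 (L-RUN) and -0.03 (RUN), and Grin1 to -0.03 in RUN, against a baseline averaged from LD and CE. Grin2c turned to 0.006 in CE and 0.016 in RUN with the length trend removed, and, in CE against RUN, to -0.01 there and to -0.008 with quantile normalization. RUN minus the averaged pools turned to 0.009 for Grin2a when the pools were averaged as log2 values. At a cut-off of 0.4, the subunit genes called fell from 1 to 0 in H-RUN against LD and from 1 to 0 in CE against RUN, with Grin3a lost in all 4 of its comparisons. Of the associated genes, those called against LD fell from 4 to 2 (L-RUN), 3 to 1 (RUN), 2 to 1 (H-RUN) and 1 to 0 (CE), those between H-RUN and L-RUN from 5 to 2 and those between CE and RUN from 2 to 1. At 0.4, the shares of expressed genes called against LD were 1.36% (L-RUN), 0.384% (RUN), 0.280% (H-RUN) and 0.185% (CE). They were 0.598% between H-RUN and L-RUN and 0.251% between CE and RUN. With the trend of transcript length removed, the subunit genes called fell from 3 to 1 in RUN, from 3 to 2 in L-RUN and from 1 to 0 in H-RUN. The associated genes then fell from 5 to 3 in H-RUN against L-RUN and from 4 to 3 in L-RUN against LD. With that trend removed, the shares of expressed genes called against LD were 0.886% (RUN), 2.20% (L-RUN) and 0.708% (H-RUN). The share was 1.32% in H-RUN against L-RUN. Quantile normalization left 2 associated genes in H-RUN against L-RUN (1.42% of expressed genes called) and 3 in L-RUN against LD (2.94%). Grin3a in RUN, at -0.301, also missed 0.3 when differences were centred (-0.300) or quantile normalized (-0.296). Against the averaged baseline, Grin2a was -0.67 in L-RUN, -0.37 in RUN and -0.08 in H-RUN, and Grin2b was -0.59, -0.32 and -0.13. The causes were not tested beyond what these settings change. No paired analysis was possible because each group was 1 library. Depth is unknown, and differences between mice were not measured.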
